A study of Homo sapiens with 6 samples.

Results

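The 33 genes described here encode proteins of complement, coagulation and fibrinolysis, with their receptors, inhibitors and surface regulators. They were listed by pathway, with earlier results of these data known, and found by gene symbol. All 33 have a row among the 31831 genes of the count table. Enough reads for a test were present for 26 of them. C4A, C4B, CFD, SERPING1, F5, SERPINB2 and A2M were too low to be tested.

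The series holds 6 RNA-seq libraries of HK-2, an immortalized line of human renal proximal tubular epithelial cells kept in high glucose (30 mM, 72 h). The 3 HG-NC libraries are from cells that carry a control lentiviral vector, which the sample labels call a control plasmid. The 3 HG-OE libraries are from cells that carry a lentivirus for hnRNP-F, an RNA-binding protein encoded by HNRNPF. The comparison asks which transcripts differ when hnRNP-F is overexpressed in high glucose. The study calls the 3 libraries of each group biological replicates. Its methods speak of parallel wells for each group, and the labels do not tie a library to a well or culture, so p-values measure the spread between these libraries, which may be technical.

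Complement is a cascade of plasma proteases and their substrates. C1r and C1s start the classical pathway, factor B and factor D run the alternative pathway, and both converge on C3 and C5, whose small fragments C3a and C5a signal through receptors on cells. Coagulation starts when tissue factor meets factor VII and ends in fibrin, and fibrinolysis removes fibrin once plasminogen has been activated by urokinase or tissue plasminogen activator. The liver makes most of the plasma proteins, while tubular epithelial cells make C3, tissue factor, urokinase and the membrane regulators themselves.

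HNRNPF checked the labels. It had 304, 319 and 311 CPM (counts scaled to library size and TMM-normalized) in HG-NC replicates 1 to 3 and 430.5, 452 and 423 CPM in HG-OE replicates 1 to 3. The difference was 0.48 on the log2 scale (SE 0.0388, edgeR adjusted p = 2.80e-07). The gene identifier that the study gives for the construct appears to be that of the mouse gene, so this count may hold only part of the construct's reads. Library totals ran from 25507595 to 29444841 counts. Of the 9 renal epithelial markers, PAX8, KRT8 and KRT18 were among the abundant ones, with 11953 to 18291 counts of PAX8. PAX2 had 53 to 88 counts, and CDH1 had 2 to 10 in 5 libraries and 384 in HG-OE replicate 3. Of the 8 tested, 3 rose and 3 fell in HG-OE. KRT8 rose by 1.35 and KRT18 by 0.76 on the log2 scale, and by 1.11 and 0.445 without HG-OE replicate 3. PAX8 fell by 0.51, and by 0.448 without that library. Of the proximal tubule markers, LRP2 (megalin) was at 0 in 5 libraries and had 17 counts in HG-OE replicate 3, CUBN (cubilin) had 10 to 16 counts, and DPP4 had 1217 to 2558.

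HG-OE replicate 3 stood apart from the other 5 libraries. Its 24 hepatocyte markers summed to 502 CPM, against 10.4 to 28.3 CPM elsewhere, and 18 of the 24 lay at least 2-fold above all other libraries. The rest, CYP2E1, CYP3A4, TAT, HP, SERPINC1 and CPS1, were lower in it than in HG-NC replicate 3. ALB had 4359 counts in it and 0 and 1 in the other HG-OE libraries. HG-NC replicate 3 had 78 ALB counts, against 4 and 1 in the other HG-NC libraries. Its hepatocyte markers summed to 28.3 CPM, against 12.5 and 12.9 CPM in HG-NC replicates 1 and 2. All 24 were highest in it among the HG-NC libraries. Markers of squamous epithelium summed to 89.1 CPM in HG-OE replicate 3 and 11.3 to 15.2 CPM elsewhere, with KRT5 and KRT6A at 334 and 274 counts in it and at 0 in the other 5. HNF4A, a transcription factor of liver and proximal tubule, had 323 counts in it and 0 elsewhere. Endothelial markers summed to 22.6 to 35.0 CPM and fibroblast markers to 31.9 to 41.8 CPM over the 6 libraries, with CDH5 at 0 to 3 and COL3A1 at 1 to 10 counts. Single genes of these lists moved. COL1A2 was at 0 in 5 libraries and had 141 counts in HG-OE replicate 3, and 3 of the 7 fibroblast markers were at least 2-fold above all other libraries there. PDGFRB rose by 2.25 and VWF by 1.73 on the log2 scale, and ESAM fell by 1.04 (adjusted p = 1.90e-05, 0.00444 and 8.23e-07). Several member genes are liver products, and the plot of log2 fold changes shows every tested member with and without HG-OE replicate 3.

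The sequences just upstream of 4 of the 33 genes are shown first, because the study centres on TNF and NF-kB signalling. The 4 were picked for being lower in HG-OE replicates 1 and 2 than in every HG-NC library. Their windows were also picked for a letter match to the binding motif of NF-kB or of AP-1. Of the 4, only TFPI2 and CFB hold an NF-kB match. PLAUR meets the same rule, with an AP-1 match 186 bases before its start, and its window is not shown. C1R, CD55, CFI, TFPI, PROS1, PLAU and SERPINE2 were also lower in these libraries, and their windows hold no NF-kB or AP-1 match. THBD was lower too and had no window at hand. Each sequence shown is the 250 bases before the RefSeq start of the gene (GRCh38.p14), written 5′ to 3′ on the gene's strand. Capitals mark matches, on either strand, to the NF-kB consensus GGGRNNYYCC, to the AP-1 motif TGANTCA or to TATAAA. R stands for A or G, Y for C or T and N for any base. Sites that depart from these patterns are not marked, so a window without a match may still hold one. TFPI2 lies at chr7:93890754-93891003 (minus strand), CFB at chr6:31945845-31946094 (plus strand), C3AR1 at chr12:8066360-8066609 (minus strand) and F3 at chr1:94541760-94542009 (minus strand).
TFPI2: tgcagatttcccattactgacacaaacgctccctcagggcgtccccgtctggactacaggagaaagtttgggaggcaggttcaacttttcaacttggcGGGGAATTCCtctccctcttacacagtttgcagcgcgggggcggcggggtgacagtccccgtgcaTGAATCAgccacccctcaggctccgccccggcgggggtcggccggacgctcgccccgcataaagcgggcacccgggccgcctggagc
CFB: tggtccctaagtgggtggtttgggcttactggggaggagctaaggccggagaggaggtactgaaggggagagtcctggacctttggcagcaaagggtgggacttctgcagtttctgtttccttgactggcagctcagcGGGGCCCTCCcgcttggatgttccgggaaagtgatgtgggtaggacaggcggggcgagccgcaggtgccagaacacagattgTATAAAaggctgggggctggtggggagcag
C3AR1: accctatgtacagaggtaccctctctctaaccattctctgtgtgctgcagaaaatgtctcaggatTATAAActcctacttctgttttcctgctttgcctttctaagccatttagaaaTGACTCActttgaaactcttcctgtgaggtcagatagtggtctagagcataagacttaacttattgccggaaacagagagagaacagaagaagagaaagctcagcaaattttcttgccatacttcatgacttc
F3: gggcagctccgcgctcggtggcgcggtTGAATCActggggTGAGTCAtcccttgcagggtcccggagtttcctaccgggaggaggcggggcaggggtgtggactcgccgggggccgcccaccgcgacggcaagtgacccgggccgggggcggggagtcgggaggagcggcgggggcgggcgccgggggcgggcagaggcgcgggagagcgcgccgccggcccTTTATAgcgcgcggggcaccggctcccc

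In TFPI2 the NF-kB match begins 152 bases and the AP-1 match 87 bases before the start. CFB has its NF-kB match at 112 bases and TATAAA at 30 bases, C3AR1 has AP-1 at 133 and TATAAA at 185 bases, and F3 has AP-1 at 223 and 210 bases and TATAAA at 28 bases. Windows were at hand for 24 of the 33 genes (35 windows). The NF-kB consensus was in 3 of these 35 windows (CFB, TFPI2 and F8), or 8.57%, against 9.96% of 35116 windows of all genes. TGANTCA was in 7 (C1RL, CD59, C3AR1, F3, TFPI2, PLAUR and SERPINB2), or 20%, against 6.57% of all windows. TATAAA was in 4, or 11.4%, against 10.7%. CD59 and F8 have more than 1 window each. The CD59 matches lie in the window starting at 33722728 and the F8 match in that starting at 154886318. Their other windows have no NF-kB or AP-1 match. Of the genes with an AP-1 match, C1RL and CD59 rose and C3AR1, F3, TFPI2 and PLAUR fell. A match is a run of letters, and binding was not measured here. The windows of C4B, SERPING1, PLAT, THBD, A2M, C4A, C1S, F2R and C3 are not shown.

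Of the 26 genes tested, 22 differed between HG-OE and HG-NC at an adjusted p under 0.05, 11 higher and 11 lower. Over all 17142 genes tested the share was 51.8%, with 25.9% higher and 25.9% lower. Among genes with a mean of at least 100 counts it was 61.9%, against 86.4% (19 of 22) of the members at that depth. A change of at least 2-fold as well, the threshold of the study, was met by 5 members, C2 and C5 higher and CFB, C3AR1 and TFPI2 lower, against 5.82% of all genes (3.69% higher and 2.13% lower). The groups did not overlap in 20 of the 26, against 59.0% of all genes. The median log2 fold change of the members was -0.02, against 0.01 over all genes, and the median size of change was 0.41 against 0.27. The members were chosen with earlier results of these data known, so shares above those of all genes are not read as a result about them. In RNA from a bulk culture, fewer cells making a transcript and less of it per cell cannot be told apart.

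Without HG-OE replicate 3, 10 members were higher and 11 lower at an adjusted p under 0.05, against 53.9% of all genes (26.7% higher and 27.2% lower). C3AR1 and TFPI2 alone kept the 2-fold call, against 6.24% of all genes tested without it. C2 and CFB stayed past the adjusted p, at 0.99 and -0.80 on the log2 scale. The log2 fold change moved by under 0.1 in 21 of the 26 genes, and by more in C5, F3, CFI, CFB and C5AR1, whose values without that library are given with each gene. HG-OE replicate 3 was at least 2-fold beyond the range of the other 5 libraries in 1 of the 26 genes (C5), against 1.28% of all genes tested. It lay outside that range by any amount in 8 of the 26. No share over all genes was taken for that looser count, so it is not read as a departure.

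**Figure D1:**
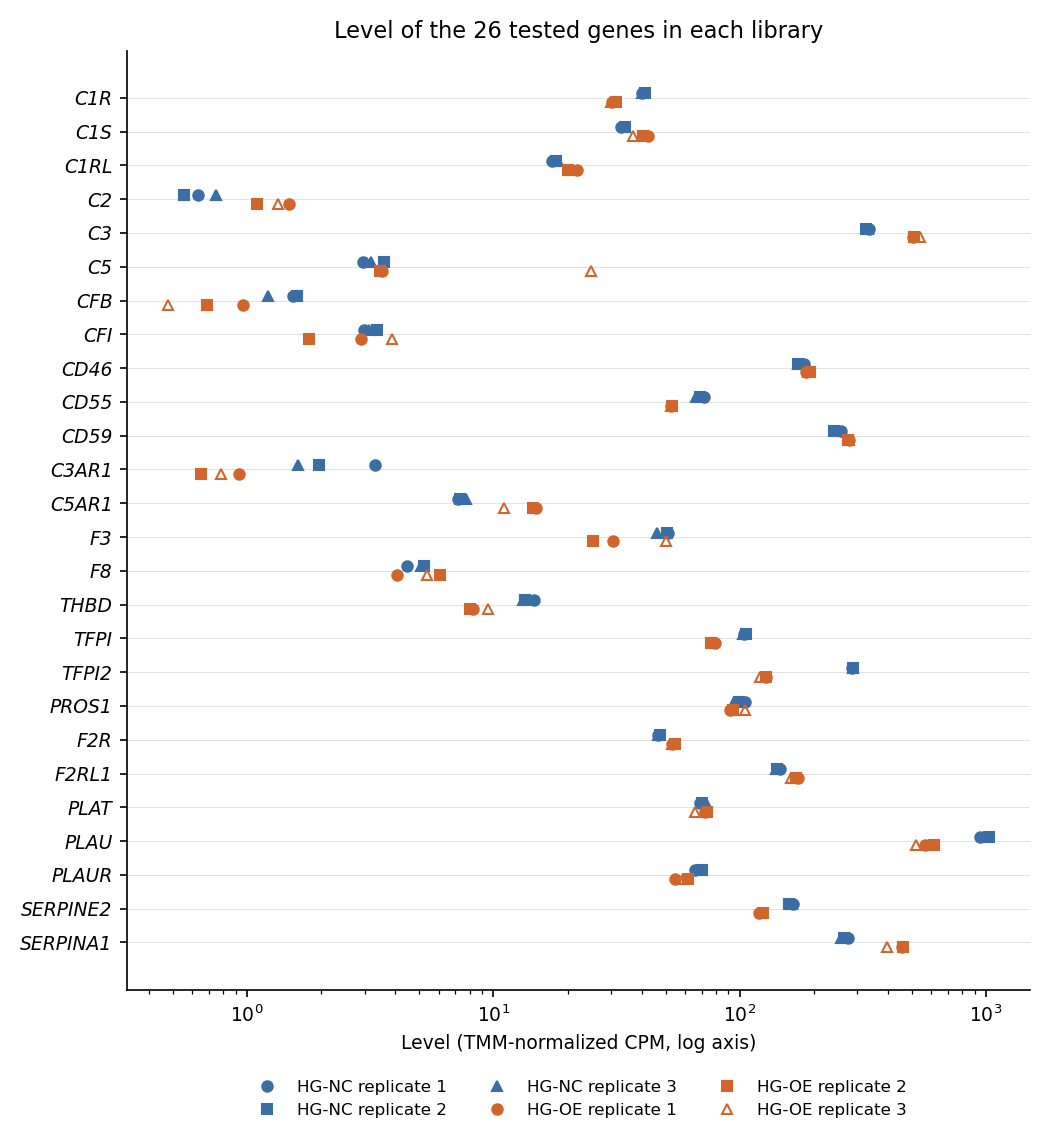
Level of the 26 tested genes in each of the 6 libraries (TMM-normalized CPM, log axis). Blue symbols are HG-NC, orange are HG-OE, and the open triangle is HG-OE replicate 3. TFPI2 fell from 287 to 289.7 CPM in HG-NC to 121 to 128 CPM in HG-OE, and the open triangle of C5 stands alone at 24.9 CPM.

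Among the classical pathway genes, the proteases of the C1 complex moved apart. C1R (chr12:7080214-7092540, minus strand, positions from GENCODE release 44 on GRCh38) had 40.2, 41.3 and 40.0 CPM in HG-NC replicates 1 to 3 and 30.3, 31.4 and 30.1 CPM in HG-OE replicates 1 to 3. All 3 HG-OE libraries lay below all 3 HG-NC libraries, and C1R fell by 0.41 on the log2 scale (SE 0.0511, adjusted p = 1.74e-05). C1S, whose product C1r activates, had 32.9, 34.2 and 34.3 CPM in HG-NC against 42.4, 40.6 and 36.8 CPM in HG-OE. It rose by 0.24 (SE 0.0604, adjusted p = 0.00427). C1RL, a C1r-like protease, had 17.3 to 18.2 CPM in HG-NC against 20.1 to 21.8 CPM in HG-OE, a rise of 0.22 (SE 0.0695, adjusted p = 0.0154) that did not pass the test without HG-OE replicate 1 (adjusted p = 0.0665) or by the Wald test of DESeq2 (adjusted p = 0.0718). C1R and C1RL overlap by 2954 bases on the same strand, and how reads there were divided is not given in the sources used here.

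C2, the protease subunit of the classical C3 convertase, was scarce. HG-NC replicates 1 to 3 had 16, 15 and 21 counts and HG-OE replicates 1 to 3 had 43, 32 and 39. Each HG-OE library was above each HG-NC library, and C2 rose 2.01-fold, 1.01 on the log2 scale (SE 0.274, adjusted p = 0.00712). Its adjusted p was 0.0558 by the Wald test of DESeq2, and its fold went below 2 without HG-NC replicate 1 or 2 or without HG-OE replicate 1 or 3, the lowest log2 value being 0.91. C4A and C4B, near-identical copies whose reads cannot be assigned with certainty, had 1 to 8 counts in every library.

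The central component C3 had the highest level per length of the complement genes among the 33 and rose. It had 333.9, 325 and 331 CPM in HG-NC replicates 1 to 3 and 506, 511 and 541 CPM in HG-OE replicates 1 to 3. That is a change of 0.65 on the log2 scale, or 57.4% (SE 0.0379, adjusted p = 1.55e-08), and 0.62 without HG-OE replicate 3. In FPKM (fragments scaled by transcript length and by library size, as deposited by the authors), C3 went from 35.6 ± 0.511 to 55.4 ± 1.96 (SD, n = 3).

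CFB, the protease of the alternative C3 convertase, went the other way. HG-NC replicates 1 to 3 had 39, 43 and 34 counts and HG-OE replicates 1 to 3 had 28, 20 and 14. The groups did not overlap, and CFB fell by 1.02 on the log2 scale (SE 0.296, adjusted p = 0.0104). Without HG-OE replicate 3, its lowest library, the value was -0.80 (adjusted p = 0.0238), and the 2-fold call also ended without HG-NC replicate 1 (-0.98), HG-NC replicate 2 (-0.95) or HG-OE replicate 2 (-0.998). CFB and C2 are neighbours on chromosome 6 and overlap by 24 bases on the same strand. CFD, which encodes factor D, had 0 to 5 counts in 5 libraries and 11 in HG-OE replicate 3.

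C5, from which the fragment C5a and the start of the membrane attack complex derive, rested on 1 library. It had 75, 97 and 89 counts in HG-NC replicates 1 to 3, 102 and 101 in HG-OE replicates 1 and 2, and 728 in HG-OE replicate 3. The fit over 6 libraries gave 1.71 (SE 0.589, adjusted p = 0.0257), while without HG-OE replicate 3 it gave 0.11 (SE 0.170, adjusted p = 0.625). The adjusted p was also 0.109, 0.0847 and 0.087 without HG-NC replicate 1, 2 or 3, and 0.133 by the Wald test of DESeq2. The hepatocyte markers rose in the same library, and their part in the C5 value was not tested.

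Both receptors for the C3a and C5a fragments were measured, and they changed in opposite directions. C3AR1, the C3a receptor (chr12:8056844-8066359, minus strand), had 84, 53 and 45 counts in HG-NC replicates 1 to 3 and 27, 19 and 23 in HG-OE replicates 1 to 3. HG-NC replicate 1 was the highest, and every HG-OE library lay below every HG-NC library. C3AR1 fell by 1.53 on the log2 scale (SE 0.296, adjusted p = 6.70e-04), the steepest fall among the 26 genes, and by 1.17 without HG-NC replicate 1. C5AR1, the C5a receptor (chr19:47290023-47322066, plus strand), had 183, 199 and 216 counts in HG-NC and 433, 420 and 323 in HG-OE. It rose by 0.86 (SE 0.118, adjusted p = 3.88e-05), and by 0.98 without HG-OE replicate 3. Within each library the count of C5AR1 was 2.18, 3.75 and 4.80 times that of C3AR1 in HG-NC and 16.04, 22.1 and 14.0 times in HG-OE. Myeloid cells carry both receptors. The 8 leukocyte markers, of which 7 are in the count table, summed to 14.1 to 14.3 CPM in HG-NC and to 10.7, 10.96 and 21.1 CPM in HG-OE replicates 1 to 3, and 1 of the 5 tested rose and 3 fell. Their defining gene PTPRC had 1 or 2 counts in every library and TYROBP 0 or 1. The other markers had more, with 78 to 428 counts of CD14, 51 to 142 of CSF1R and 55 to 107 of FCER1G. CD68 had 34 to 65 and LYZ 7 to 40. CD14 rose by 1.41 on the log2 scale, with its 428 counts in HG-OE replicate 3, and CSF1R, FCER1G and CD68 fell. Whether leukocytes were present was not tested.

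CD46, CD55 and CD59, membrane regulators that protect host cells from complement, changed by 0.38 or less on the log2 scale, CD55 down and the others up. CD55 (decay-accelerating factor, which takes apart C3 convertases) had 71.7, 68.7 and 66.4 CPM in HG-NC replicates 1 to 3 and 52.6, 53.2 and 52.8 CPM in HG-OE replicates 1 to 3. It fell by 0.38 on the log2 scale (SE 0.0465, adjusted p = 1.26e-05), with a narrow spread in HG-OE (SD 0.309 CPM). CD59, which blocks the membrane attack complex, had 257, 242 and 251 CPM in HG-NC against 278, 275 and 277 CPM in HG-OE, a rise of 0.14 (SE 0.0373, adjusted p = 0.00514). CD46, a cofactor for the cleavage of C3b, had 183, 173 and 173 CPM in HG-NC against 186, 193 and 188.5 CPM in HG-OE. Its rise of 0.10 (SE 0.0396, adjusted p = 0.0468) passed the threshold only just, and the adjusted p was 0.056 to 0.154 without HG-NC replicate 2 or 3 or HG-OE replicate 1 or 2, and 0.0639 by the Wald test of DESeq2. The counts of CD46 and CD59 per count of CD55 were 2.56 and 3.63 on average in HG-NC and 3.57 and 5.23 in HG-OE.

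CFI, the soluble protease that cleaves C3b, had 76, 91 and 87 counts in HG-NC and 84, 52 and 114 in HG-OE. The groups overlapped, and the difference was -0.14 (95% interval -0.64 to 0.36, adjusted p = 0.634), and -0.43 without HG-OE replicate 3 (adjusted p = 0.0616). SERPING1, the C1 inhibitor, had 0 to 12 counts, the most in HG-NC replicate 3. A count of 0 allows up to 3 counts, so in the libraries at 0 a low level of SERPING1 cannot be told from absence at this depth.

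**Figure D2:**
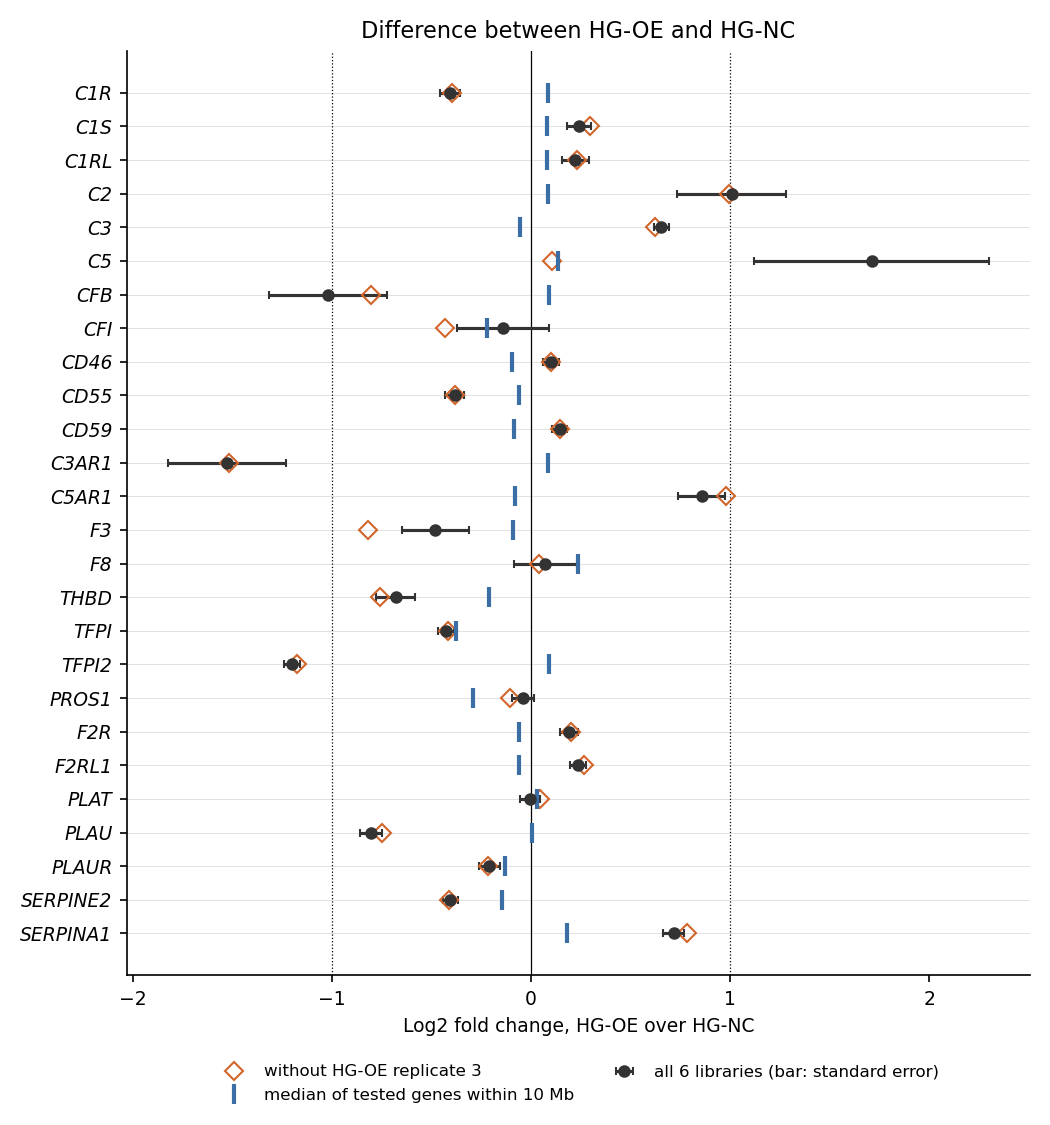
Log2 fold change of HG-OE over HG-NC for the 26 tested genes (filled circles, bars are standard errors), with the value without HG-OE replicate 3 (open diamonds) and the median of tested genes within 10 Mb (blue ticks). Dotted lines mark 2-fold. The open diamond of C5 sits at 0.11, away from its circle at 1.71, and the tick of TFPI at -0.38 lies beside its circle at -0.43.

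Among the coagulation genes, tissue factor differed between the HG-OE libraries. F3, which starts the extrinsic pathway (chr1:94529173-94541759, minus strand), had 51.3, 50.7 and 46.3 CPM in HG-NC replicates 1 to 3 and 30.7, 25.3 and 50.3 CPM in HG-OE replicates 1 to 3. The first and second HG-OE libraries lay below all HG-NC libraries and HG-OE replicate 3 lay among them. F3 fell by 0.48 in the fit over 6 libraries (SE 0.170, adjusted p = 0.0299) and by 0.82 without HG-OE replicate 3 (SE 0.0672, adjusted p = 4.19e-15). Leaving out any other single library put the adjusted p between 0.0639 and 0.123, and the Wald test of DESeq2 gave 0.222. F8, the cofactor of factor IX, had 113 to 142 counts in HG-NC and 118 to 177 in HG-OE, a difference of 0.07 (95% interval -0.27 to 0.41, adjusted p = 0.724). F5, the cofactor of factor X, had 0 to 2 counts in 5 libraries and 83 in HG-OE replicate 3, the library with the liver markers.

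The inhibitors of coagulation fell or showed no change past the test. TFPI2, a Kunitz-type inhibitor of plasmin and other serine proteases (chr7:93885396-93890753, minus strand), had 287, 288 and 289.7 CPM in HG-NC replicates 1 to 3 and 128, 127 and 121 CPM in HG-OE replicates 1 to 3. The SD over replicates was 1.46 CPM in HG-NC against 3.68 CPM in HG-OE, and TFPI2 fell by 1.20 on the log2 scale, to 0.435 of its HG-NC level (SE 0.0383, adjusted p = 1.09e-10). It remained past 2-fold without any 1 library, between -1.22 and -1.18. On the FPKM scale it was the second most abundant of the 33 genes in HG-NC, at 106 ± 0.911, and the fifth in HG-OE, at 45.4 ± 1.38 (SD, n = 3).

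TFPI, the inhibitor of the tissue factor and factor VIIa complex (chr2:187464230-187565760, minus strand), had 104, 106 and 103 CPM in HG-NC against 79.6, 76.8 and 77.2 CPM in HG-OE. It fell by 0.43 (SE 0.0401, adjusted p = 1.29e-06). Genes within 10 Mb of it had a median of -0.38, the 1 tested member whose neighbours moved by more than 0.3 on the log2 scale, and a difference of -0.05 from them was left. THBD (thrombomodulin, which turns thrombin towards the activation of protein C) had 14.6, 13.5 and 13.2 CPM in HG-NC against 8.24, 8.04 and 9.49 CPM in HG-OE. It fell by 0.68 (SE 0.0971, adjusted p = 5.28e-05). PROS1, which encodes the protein C cofactor protein S, had 105, 99.0 and 94.7 CPM in HG-NC against 91.4, 94.0 and 105 CPM in HG-OE. Its groups overlapped, with a difference of -0.04 (95% interval -0.16 to 0.08, adjusted p = 0.557).

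The protease-activated receptors PAR1 and PAR2 rose slightly. F2R, which encodes PAR1, a receptor cleaved by thrombin, had 46.5 to 47.4 CPM in HG-NC against 52.9 to 54.5 CPM in HG-OE, a rise of 0.19 (SE 0.0466, adjusted p = 0.00346). F2RL1, which encodes PAR2, had 146, 142 and 140.1 CPM in HG-NC against 173, 169 and 161 CPM in HG-OE, a rise of 0.24 (SE 0.0405, adjusted p = 2.57e-04). Their groups did not overlap. Within a library there were 2.99 to 3.26 counts of F2RL1 per count of F2R, and this ratio overlapped between the groups.

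In fibrinolysis the gene for urokinase fell, while no difference in tissue plasminogen activator passed the test. PLAU, which encodes urokinase (chr10:73909177-73917496, plus strand), had 941, 1025 and 999.5 CPM in HG-NC replicates 1 to 3 and 564, 614 and 519.9 CPM in HG-OE replicates 1 to 3. It was the most abundant of the 33 genes in both groups, at 299.9 ± 13.5 FPKM in HG-NC and 169.8 ± 13.6 FPKM in HG-OE (SD, n = 3). PLAU fell by 0.80 on the log2 scale, to 0.573 of its HG-NC level (SE 0.0538, adjusted p = 5.88e-08), with no overlap of the groups. PLAT, which encodes tissue plasminogen activator, had 69.0, 70.4 and 73.0 CPM in HG-NC against 72.2, 73.7 and 66.0 CPM in HG-OE. The groups overlapped, and the 95% interval of its difference ran from -0.11 to 0.10 on the log2 scale (adjusted p = 0.958). Per count of PLAT there were 13.6 to 14.6 counts of PLAU in HG-NC and 7.81 to 8.34 in HG-OE.

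PLAUR, the urokinase receptor, had 65.7, 70.4 and 66.2 CPM in HG-NC against 54.6, 61.5 and 59.0 CPM in HG-OE, and fell by 0.21 (SE 0.0534, adjusted p = 0.00489). SERPINE2 (protease nexin-1, an inhibitor of thrombin and urokinase) had 164, 159 and 162 CPM in HG-NC against 119, 124 and 124 CPM in HG-OE. It fell by 0.41 (SE 0.0383, adjusted p = 1.29e-06). SERPINB2, which inhibits urokinase, was at 0 counts in 5 libraries and had 25 in HG-OE replicate 3, beside the squamous markers. SERPINA1, the elastase inhibitor alpha-1 antitrypsin (chr14:94376747-94390693, minus strand), went up. It had 275, 264 and 258 CPM in HG-NC against 457, 458 and 395 CPM in HG-OE, a rise of 0.72 on the log2 scale, or 64.2% (SE 0.0538, adjusted p = 1.61e-07). HG-OE replicate 3 was the lowest of the HG-OE libraries, and the rise was 0.78 without it. The broad inhibitor A2M had 0 to 6 counts in 5 libraries and 30 in HG-OE replicate 3.

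Pairs of genes within a library are free of the scaling between libraries. The pairs were picked after the values were seen and are described without a test. C1S per C1R went from 0.834 ± 0.0202 to 1.31 ± 0.0910 (SD, n = 3), and TFPI per TFPI2 from 0.363 ± 0.00649 to 0.621 ± 0.0172. C2 per CFB was 0.410, 0.349 and 0.618 in HG-NC and 1.54, 1.60 and 2.79 in HG-OE. F3 per TFPI overlapped between the groups, with 0.493, 0.476 and 0.449 in HG-NC and 0.385, 0.330 and 0.651 in HG-OE.

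**Figure D3:**
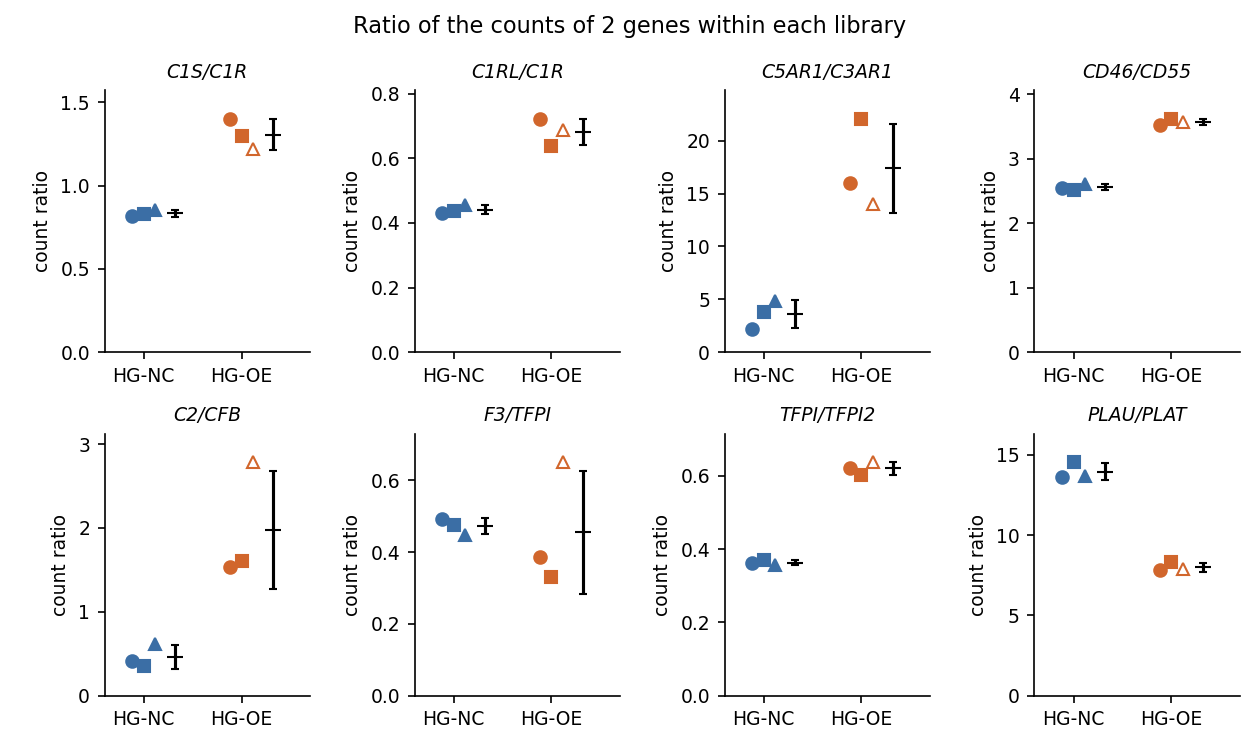
Ratio of the counts of 2 genes within each library, for 8 pairs. Symbols are libraries (blue HG-NC, orange HG-OE, open triangle HG-OE replicate 3), and the black marks are means with SD (n = 3). The pairs were picked after the values were seen, so their separation is no test. The groups are apart in 7 of the pairs and overlap in F3/TFPI, where HG-OE replicate 3 stands at 0.651. Of the pairs not shown, F2RL1/F2R and C3/C5AR1 overlap, and CD59/CD55, F3/TFPI2, PLAU/PLAUR and C3/CD55 do not.

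By level, 13 of the 33 genes reached 10 FPKM in HG-NC and 12 did in HG-OE. In HG-NC the order was PLAU, TFPI2, SERPINA1 (48.5 ± 1.37 FPKM), F2RL1 (43.5 ± 0.739 FPKM) and C3 (35.6 ± 0.511 FPKM). In HG-OE it was PLAU, SERPINA1 (78.8 ± 6.56 FPKM), C3 (55.4 ± 1.96 FPKM), F2RL1 (50.7 ± 1.90 FPKM) and TFPI2. Lower in the order, PROS1 (16.9 ± 0.844 FPKM) and SERPINE2 (16.2 ± 0.265 FPKM) in HG-NC lay within their spread of each other. C1R and C1S stood at 6.25 ± 0.0954 and 4.68 ± 0.121 FPKM in HG-NC and at 4.66 ± 0.0819 and 5.47 ± 0.409 FPKM in HG-OE, so their order turned.

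The other genes of the 3 pathways were taken from a list of 75, also made with earlier results of these data known. Of these, 70 are in the count table and 28 were tested. At an adjusted p under 0.05, 9 were higher and 10 were lower, 67.9% in all, against 51.8% of all genes tested. With the 2-fold requirement there were 5 (17.9%, against 5.82% of all genes), FGB, VWF and SERPINF2 higher and SUSD4 and KLK1 lower. SUSD4, a complement regulator of the membrane, had 181, 236 and 194 counts in HG-NC and 60, 46 and 60 in HG-OE, and fell by 2.00 (SE 0.160, adjusted p = 2.72e-07), and by 2.06 without HG-OE replicate 3. KLK1, tissue kallikrein, which releases kinins, had 59, 60 and 48 counts in HG-NC and 14, 6 and 12 in HG-OE, and fell by 2.49 (SE 0.313, adjusted p = 1.69e-05), and by 2.58 without HG-OE replicate 3. SERPINF2, the inhibitor of plasmin, had 30, 28 and 17 counts in HG-NC and 51, 68 and 72 in HG-OE, a rise of 1.22 (SE 0.267, adjusted p = 0.0017) that was 0.98 without HG-NC replicate 3 and 1.13 without HG-OE replicate 3. VWF, the carrier of factor VIII, had 6 to 7 counts in HG-NC and 33, 28 and 12 in HG-OE, a rise of 1.73 (SE 0.436, adjusted p = 0.00444), and of 2.06 without HG-OE replicate 3. FGB, the fibrinogen beta chain, had 24, 29 and 55 counts in HG-NC and 124, 134 and 994 in HG-OE. It rose by 3.41 (SE 0.714, adjusted p = 0.0012), and by 1.73 without HG-OE replicate 3 (adjusted p = 1.04e-09). FGB is also one of the hepatocyte markers that were high in that library.

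CLU (clusterin, an inhibitor of the membrane attack complex) had 66.2 to 72.8 CPM in HG-NC against 73.9, 73.4 and 109 CPM in HG-OE, a difference of 0.28 that did not pass the test (adjusted p = 0.0584) and was 0.07 without HG-OE replicate 3. PLG, the plasminogen gene, had 0, 0 and 3 counts in HG-NC and 0, 0 and 4 in HG-OE.

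Part of the scarce genes of these pathways were high in 1 library. Of the 33 members, 5 lay at least 2-fold above all other libraries in HG-OE replicate 3 (C5, CFD, F5, SERPINB2 and A2M), and so did 22 of the 70 other pathway genes, against 8.25% of all genes in the count table. Others did not, such as SERPINC1 (antithrombin), with 10 counts in HG-NC replicate 3 and 2 in HG-OE replicate 3, and SERPING1, with 12 and 4. Fibrinogen alpha (FGA) had 761 counts there, 65 in HG-NC replicate 3 and at most 4 elsewhere, and VTN (vitronectin) had 342 there and at most 2 elsewhere. F2, the prothrombin gene, had 183 counts there and at most 7 elsewhere. The members that are abundant in HK-2 cells were near the level of the other HG-OE libraries in it, the widest gap after C5 among tested members being that of F3, at 1.80 times the mean of HG-OE replicates 1 and 2.

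**Figure D4:**
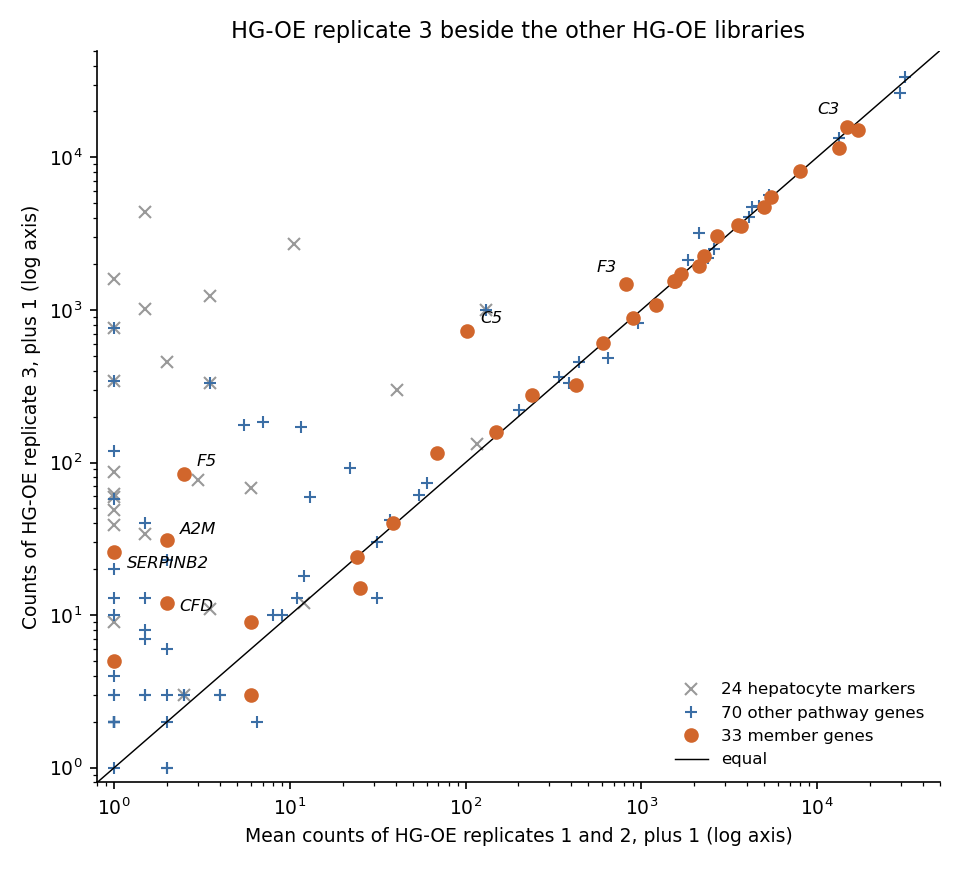
Counts of HG-OE replicate 3 against the mean of HG-OE replicates 1 and 2, each plus 1, on log axes. Orange circles are the 33 members, blue crosses 70 other pathway genes, grey crosses 24 hepatocyte markers, and the line marks equal counts. Most abundant members lie on the line, while C5 (728 counts against 102 and 101) and F5 (83 against 2 and 1) lie with the hepatocyte markers above it.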

How the data were processed

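RNA-seq of 3 HG-NC and 3 HG-OE libraries of HK-2 cells was used. Per the study's methods, polyadenylated RNA was sequenced with strand kept, reads were trimmed and aligned to GRCh38 with HISAT2 (also named in the submitters' processing notes), and uniquely mapped reads were counted per gene. The counter and annotation are not given in the sources used here. The authors deposited gene counts in whole numbers, treated here as raw, and, in a second table, FPKM values, scaled by transcript length and library size. ComBat_seq is named in the methods, and whether it touched the deposited counts is not given. The number of further per-sample columns left unused was 0. Columns were matched to samples by name and replicate number.

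The members and gene lists were chosen with earlier results of these data known. Counts were fitted over all genes with edgeR 4.0.16 (R 4.3.3): filterByExpr, TMM scaling, glmQLFit and glmQLFTest, with Benjamini-Hochberg adjustment over the 17142 genes kept. A call needed both a 2-fold change or more and an adjusted p under 0.05, while "rose" or "fell" means an adjusted p under 0.05. Standard errors derive from the quasi-likelihood F statistic, and 95% intervals from its degrees of freedom. The biological coefficient of variation was 0.0683. An exact two-sided permutation test of 3 against 3 libraries cannot go below 0.1, so none is quoted for single genes. Levels of different genes were compared only in FPKM. The fitting was tested on simulated data.

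All members and HNRNPF were to be named, with pathway genes that were called, PLG and CLU and further pathway genes that are not reported here, and markers reaching 1 CPM in any library. Full statistics were planned for called members and the 12 other members with the highest mean CPM, and are given for further members beside them. ALB, PTPRC, TYROBP, CDH5, COL3A1, LRP2, CUBN, FGA, VTN, F2 and SERPINC1 are quoted as marker or pathway levels. Alternatives were size factors of DESeq2 1.42.0, its Wald test, a minimum of 10 counts in each library or no filter on low counts, a replicate block, limma 3.58.1 on log2(FPKM + 1) or log2(FPKM + 0.1), removal of the median of genes within 10 Mb, no fold threshold, and each library left out in turn. Promoter windows and their start sites come from RefSeq (GRCh38.p14). Counting intervals and limits cover counting error only.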

Additional observations from a re-analysis of the deposited data

How the results depend on the processing

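With a fall of 2-fold or more, TFPI2 kept its call under every alternative run, and C3AR1 under all but limma on log2(FPKM + 1), with or without the filter (-0.39 in both). Over 32 genes and 476 alternative values, 430 kept direction and side of the threshold, 37 lost the 2-fold call and 9 changed sign. Those that changed sign were genes with no change past the test. They are CFI (0.079 with the neighbours' median removed, and -0.431 to 0.105 with single libraries left out, the positive value without HG-OE replicate 2), F8 (-0.164 with the neighbours' median removed, and -0.058 to 0.218, the negative value without HG-OE replicate 2), PROS1 (0.249 with the neighbours' median removed, and -0.103 to 0.002, the positive value without HG-NC replicate 1) and PLAT (0.004 with at least 10 counts in every library, and -0.035 to 0.043, positive without HG-NC replicate 3 or HG-OE replicate 3).

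The 997 genes called became 1539 with no low-count filter, 617 with at least 10 counts in every library, 144 by limma on log2(FPKM + 1), 138 by the same without a filter, and 8887 with no fold threshold. Leaving out single libraries gave 989 to 1124. The 5 members called became 1 by limma on log2(FPKM + 1), also without a filter, 2 on log2(FPKM + 0.1) and 22 with no fold threshold. Leaving out single libraries gave 2 to 4 members, with 2 (C3AR1 and TFPI2) without HG-NC replicate 1, HG-NC replicate 2 or HG-OE replicate 3. With no filter F5 and SERPINB2, whose counts lie in HG-OE replicate 3, were called and C2 was not. The 22 members past the adjusted p ranged from 17 to 23 over all alternatives, and from 19 to 21 with single libraries left out. The 5 other pathway genes called became 14 with no filter, 3 with at least 10 counts in every library and 19 with no fold threshold. By limma on log2(FPKM + 1), with and without a filter, the number was 0, with 19 at an unadjusted p under 0.05 in each and 5 called by edgeR and by the Wald test of DESeq2. Leaving out single libraries gave 4 to 8, the 8 without HG-OE replicate 1. A pseudocount of 1 shrinks the fold change of genes at low FPKM by construction. For the other changes the cause was not tested.

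The labels number the libraries 1 to 3 in both groups, and same-numbered libraries did not deviate together (correlations -0.0273, 0.0301 and -0.000993). With the replicate number as a block 990 genes, 5 members and 5 other pathway genes were called, and 21 members passed the adjusted p, CD46 being lost (adjusted p = 0.0605).

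Depth limits C2, CFB and C3AR1, at 14 to 84 counts per library, and the 7 genes that could not be tested. There are 3 libraries per group. HG-OE replicate 3 holds liver-type and squamous transcripts, and HG-NC replicate 3 holds liver-type ones at a lower summed level. Values of C5, F5, CFD, SERPINB2 and A2M rest on HG-OE replicate 3.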
